A study of Homo sapiens with 8 samples.

Results

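The complement genes, complement regulators and tissue factor pathway genes of 2 human lymphoma cell lines were examined in 10 members, C3, C5, CFI, CD46, CD55, CD59, CR2, F3, TFPI and TFPI2, of 17958 genes that had a probe set of their own. C5, CR2 and TFPI were taken into the set because they differed strongly between treated and untreated cells, so their glucosamine differences are given as a description with no test. The other 7 were listed for their roles. Each of the 10 had 1 probe set, and all were kept, since no filter on low signal was applied. RNA came from 3 groups of arrays. KMH2 control held 3 arrays of untreated KMH2, a line from Hodgkin lymphoma. KMH2 glucosamine held 3 arrays of the same line after 24 h of glucosamine, an amino sugar, (dose: not given in the sources used here). Ramos held 2 arrays of a Burkitt lymphoma line. Both Ramos arrays are titled control, whereas the series' design text places 1 of them after glucosamine, so Ramos was used as a cell line only, with no treatment read into it. Each line is a single established line, so the replicates are not different donors, and both were grown in RPMI with heat-inactivated bovine serum.

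Complement is a cascade of plasma proteases and their substrates that marks and lyses foreign cells. C3 and C5 are its central substrates, factor I (CFI) cuts deposited C3b, and the membrane proteins CD46, CD55 and CD59 protect a cell from complement on its own surface. CR2 (CD21) is the receptor for C3 fragments on B cells, where it acts with CD81 beside the antigen receptor. Tissue factor (F3) starts blood clotting with factor VII, and the Kunitz-type inhibitors TFPI and TFPI2 restrain that step or related proteases. The liver secretes most plasma complement, and B cells are best known in this system for CR2.

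The stretches upstream of the 3 genes chosen for their change are shown because they lie next to the starts of the genes that the results turn on. They are the 250 bases before each start in the RefSeq promoter table of GRCh38.p14, which matched 9 of the 10 members (the other being C3). Capitals mark matches, on either strand, to 5 short motifs: the E-box CACGTG, the ATF4-C/EBP composite site TGATGNAA, the AP-1 site TGANTCA, the antioxidant element TGACNNNGC and the CCAAT box CCAAT. C5 has 2 starts in the table, both on the minus strand, and which of them its probe set reads was not examined.
C5, start 1, chr9:121074866-121075115: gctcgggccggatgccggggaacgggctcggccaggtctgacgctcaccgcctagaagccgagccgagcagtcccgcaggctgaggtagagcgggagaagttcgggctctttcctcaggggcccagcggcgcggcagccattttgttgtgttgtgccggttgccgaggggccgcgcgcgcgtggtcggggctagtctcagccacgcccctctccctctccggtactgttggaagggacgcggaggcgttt
C5, start 2, chr9:121050276-121050525: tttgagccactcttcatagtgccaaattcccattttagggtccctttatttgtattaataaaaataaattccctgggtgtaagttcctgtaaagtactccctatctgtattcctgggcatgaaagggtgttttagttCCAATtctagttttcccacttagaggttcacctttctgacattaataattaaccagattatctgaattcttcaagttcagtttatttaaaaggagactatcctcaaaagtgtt
CR2, plus strand, chr1:207454078-207454327: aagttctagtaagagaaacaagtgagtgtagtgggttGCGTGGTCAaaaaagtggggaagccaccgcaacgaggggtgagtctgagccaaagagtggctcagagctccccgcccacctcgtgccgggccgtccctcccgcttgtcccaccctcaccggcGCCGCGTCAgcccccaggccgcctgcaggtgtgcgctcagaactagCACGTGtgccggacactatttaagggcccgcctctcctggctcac
TFPI, minus strand, chr2:187554436-187554685: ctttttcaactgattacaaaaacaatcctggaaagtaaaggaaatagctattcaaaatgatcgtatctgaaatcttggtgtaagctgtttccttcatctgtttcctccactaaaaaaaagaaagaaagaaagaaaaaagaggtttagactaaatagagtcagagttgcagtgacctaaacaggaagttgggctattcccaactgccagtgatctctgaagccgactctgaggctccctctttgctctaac

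The CR2 stretch held an E-box from 45 to 40 bases before the start and 2 antioxidant elements on the minus strand, from 213 to 205 and from 91 to 83 bases before it. An E-box was present in 6.34% and an antioxidant element in 10.9% of the 35116 promoters of the table. The second C5 start had a CCAAT box (32% of promoters), and the first had no match to any of the 5 motifs. TFPI had none either, and the composite and AP-1 motifs (3.14% and 6.57% of promoters) were found in none of these 4 stretches. None of the printed matches overlapped. GC content was 69.2% before the first C5 start, 34.8% before the second, 62.8% for CR2 and 38.4% for TFPI, against a median of 58% over all promoters. These matches describe letters only, and no binding was measured.

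The values are log2 signals, in which 1 unit is a 2-fold difference in signal. Array medians over 33297 probe sets lay between 5.62 and 5.68, and the SD between replicates had a median of 0.07 for KMH2 control and 0.08 for KMH2 glucosamine. The mean signal of 6 members was above the median of all probe sets, while C3, CFI, F3 and TFPI2 (4 members) lay below it. TFPI was above it through its treated arrays (mean 7.71). Its means in KMH2 control (5.29) and Ramos (3.58) were below 5.70, that median. How much of such a low signal is background was not tested. Signals of different genes were not compared as amounts of RNA. In the marker lists used to check the lines, all 6 measured B-cell genes were higher in Ramos (list mean 10.34 to 10.44) than in KMH2 control (5.61 to 5.79) and all 6 Hodgkin genes were lower. The B-cell mean stayed at 5.49 to 5.72 after glucosamine, with 1 of 6 genes lower, so this list was low in KMH2 against Ramos. All 6 Hodgkin genes fell after glucosamine, with a list mean of 9.43 to 9.49 in control and 8.80 to 8.88 in treated arrays, and their part in the results was not tested. The mean signal of 6 hepatocyte markers was 4.53 to 4.57 in KMH2 control, 4.58 to 4.60 after glucosamine and 4.64 to 4.67 in Ramos. After glucosamine 0 of them passed the limma test, against 25.8% of all probe sets (0 at an unadjusted p under 0.05, against 36.1%). Fewer cells with a transcript and less transcript per cell cannot be told apart in such bulk RNA.

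The first comparison addressed the response of KMH2 cells to glucosamine. C5, the substrate from which the lytic complex and the C5a peptide arise, read 7.24, 7.57 and 7.51 in the control arrays and 5.42, 5.67 and 5.46 after glucosamine. All treated arrays lay below all controls, as they did for 20.6% of all probe sets tested, and the mean difference of -1.93 ± 0.10 (SE, n = 3 per group) is a 3.80-fold lower signal. Within the numbered pairs the difference was -1.82, -1.91 and -2.05. CR2 read 11.36, 11.38 and 11.38 in control and 10.21, 10.31 and 10.21 after glucosamine, a difference of -1.13 ± 0.05 (SE, n = 3 per group), or 2.19-fold. Its replicates were tight, with SDs of 0.01 and 0.05, and the groups did not overlap. TFPI, the inhibitor of the tissue factor and factor VIIa complex, went the other way. It read 5.49, 5.19 and 5.21 in control and 7.79, 7.66 and 7.68 after glucosamine, a difference of 2.42 ± 0.09 (SE, n = 3 per group), or 5.34-fold. Every treated array was above every control, as for 20.3% of probe sets (40.9% in either direction). Leaving out any 1 of the 6 arrays kept the difference between -2.03 and -1.86 for C5, between -1.16 and -1.11 for CR2 and between 2.36 and 2.51 for TFPI.

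**Figure D1:**
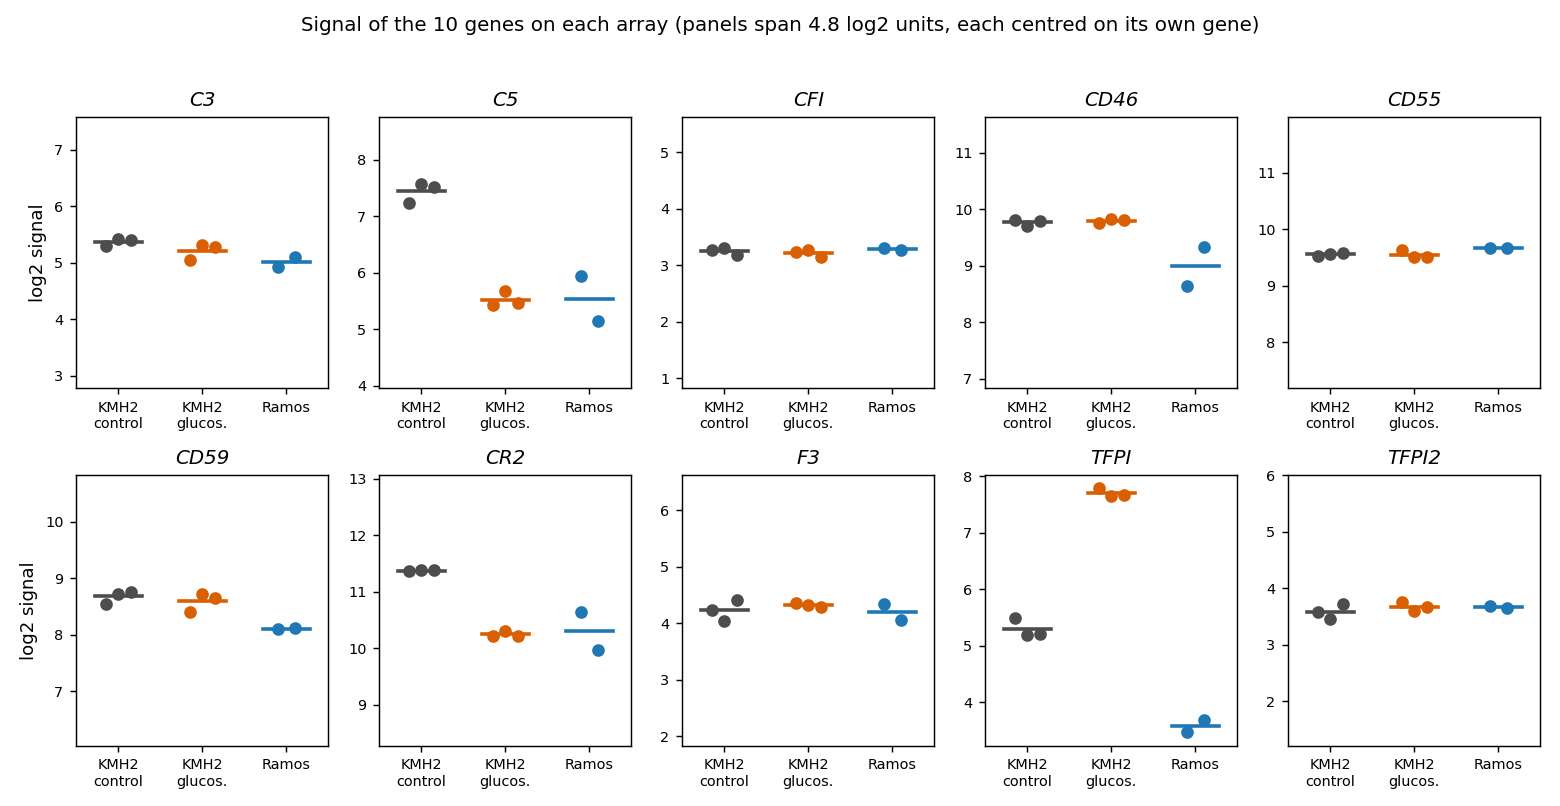
Log2 signal (vertical axis) of each of the 10 genes on each array, grouped on the horizontal axis as KMH2 control (3 arrays), KMH2 glucosamine (3) and Ramos (2). Points are arrays, bars are group means, and each panel spans the same number of log2 units around its own gene. C5 and CR2 sit lower after glucosamine (means 5.51 and 10.24) than in control (7.44 and 11.37), TFPI sits higher (7.71 against 5.29), and the Ramos arrays of C5, CR2 and CD46 lie apart from each other.

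None of the 7 members listed for their roles passed the test after glucosamine. Over all 19181 probe sets tested 25.8% passed the threshold (limma, Benjamini-Hochberg adjusted p under 0.05), 11.9% higher and 13.9% lower, whereas 0 of these 7 passed. At an unadjusted p under 0.05 the count was also 0 of 7, against 36.1% of all probe sets, and the median difference of the 7 was -0.01 against 0.01 over all probe sets. CD46, the cofactor with which factor I cuts C3b and C4b, read 9.80, 9.71 and 9.79 in control and 9.76, 9.82 and 9.80 after glucosamine. The difference was 0.03 with a 95% confidence interval from -0.09 to 0.15 (adjusted p = 0.745). CD55, which speeds the decay of the C3 convertases, read 9.53, 9.57 and 9.58 in control and 9.64, 9.50 and 9.51 after glucosamine. Its difference of -0.01 had an interval from -0.14 to 0.12 (adjusted p = 0.942); the arrays overlapped, and the interval left no room for a shift of the size seen in C5 or CR2. CD59, which blocks the last step of the lytic complex, read 8.55, 8.72 and 8.76 in control and 8.40, 8.72 and 8.65 after glucosamine. The difference was -0.09, with an interval from -0.31 to 0.13 (adjusted p = 0.582).

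C3, on which all complement pathways meet, had the largest shift of the 7, from 5.30, 5.43 and 5.40 in control to 5.05, 5.31 and 5.28 after glucosamine. It was lower in each of the 3 pairs (-0.25, -0.11 and -0.12), but the groups overlapped and the difference of -0.16 (interval -0.35 to 0.02) did not pass (adjusted p = 0.196). CFI, the protease that inactivates C3b, stayed between 3.14 and 3.31 on all 8 arrays, with a glucosamine difference of -0.04 (interval -0.18 to 0.10). F3, the initiator of clotting that TFPI inhibits, read 4.23, 4.04 and 4.42 in control and 4.36, 4.32 and 4.29 after glucosamine. Its difference of 0.09 had an interval from -0.12 to 0.30 (adjusted p = 0.533), at a signal where only 24.3% of probe sets were as low or lower. TFPI2, the relative of TFPI, read between 3.46 and 3.76 in the 6 KMH2 arrays, with a difference of 0.09 (interval -0.09 to 0.27, adjusted p = 0.474).

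The second comparison set Ramos against KMH2 control, a contrast that the choice of members did not use, although it shares the KMH2 control arrays with the first. Because titles and design text disagree on whether a Ramos array was treated, cell line and treatment cannot be told apart with certainty in it. In Ramos 6 of the 10 members were lower and 0 were higher (4 did not pass), where 43.8% of all probe sets passed, 22.7% higher and 21.2% lower. At an unadjusted p under 0.05 the count was again 6, against 50.6% of all probe sets. The median difference of the 10 was -0.46 against 0.06 over all probe sets. Of the 7 listed for their roles, 3 were lower and 4 did not pass, and their median difference was -0.03. TFPI had the smallest p of the 10. Its Ramos arrays read 3.47 and 3.69, a difference of -1.71 ± 0.11 (SE, adjusted p = 5.08e-06), below every KMH2 array. The KMH2 glucosamine arrays lay above control, the change for which TFPI was chosen. C5 read 5.94 and 5.14 in Ramos, lower than KMH2 control by 3.74-fold (-1.90 ± 0.22, SE, adjusted p = 1.43e-04). The treated KMH2 arrays of C5 (5.42 to 5.67) lay between the 2 Ramos arrays, and no test of those groups was made. CR2 showed the same order, with 10.64 and 9.96 in Ramos, a difference of -1.08 ± 0.17 (SE, adjusted p = 8.81e-04), and treated KMH2 arrays (10.21 to 10.31) between them.

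Among the membrane regulators, CD46 was lower in Ramos at 8.64 and 9.33, a difference of -0.78 with an interval from -1.17 to -0.39 (adjusted p = 0.00571). The size of the CD46 difference rested on which Ramos array was used, being -0.44 without replicate 1 and -1.12 without replicate 2. With 1 array left out, the Ramos difference also ran from -2.30 to -1.50 for C5 and from -1.41 to -0.74 for CR2. CD59 was lower at 8.10 and 8.11 (difference -0.57, interval -0.82 to -0.32, adjusted p = 0.00302), below every KMH2 array. CD55 read 9.66 and 9.67, above every KMH2 array, but its difference of 0.10 did not pass (adjusted p = 0.251). Ramos did not overlap with the 3 KMH2 control arrays for 64.1% of all probe sets, 26.3% with Ramos lower and 37.8% with Ramos higher. C3 was lower at 4.93 and 5.11 (difference -0.36, interval -0.59 to -0.12, adjusted p = 0.0215). That call was lost without KMH2 control replicate 2 (-0.33, adjusted p = 0.0699), KMH2 control replicate 3 (-0.34, 0.0645) or Ramos replicate 1 (-0.26, 0.0905), and with array weights (-0.37, 0.0821), over a range of 0.00877 to 0.0905. CFI (3.31 and 3.27), F3 (4.35 and 4.06) and TFPI2 (3.68 and 3.65) overlapped with KMH2 control, with adjusted p of 0.737, 0.889 and 0.515.

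**Figure D2:**
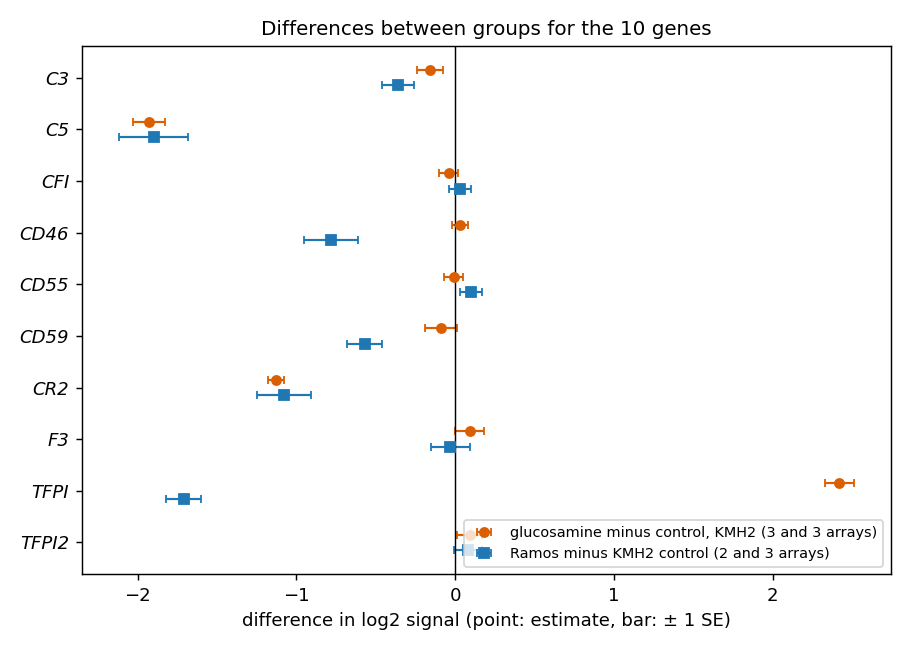
Difference in log2 signal (horizontal axis) for each of the 10 genes (vertical axis), as estimates with bars of 1 SE from limma. Circles are glucosamine minus control in KMH2 (3 and 3 arrays) and squares are Ramos minus KMH2 control (2 and 3 arrays). TFPI lies at 2.42 after glucosamine and -1.71 in Ramos, C5 at -1.93 and -1.90 and CR2 at -1.13 and -1.08, and the 2 comparisons share the control arrays.

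The 2 Ramos arrays differed from each other in some of the same genes. Replicate 2 minus replicate 1 was -0.79 for C5, -0.67 for CR2 and 0.69 for CD46, sizes that 5.51%, 8.19% and 7.82% of all probe sets reached or passed. For TFPI it was 0.21, a size that 40.3% of probe sets reached, and for CD55 and CD59 it was 0.01 each. With 1 array each these differences have no replicate check, and no treatment was read from them.

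On chromosome 1 the RefSeq order of protein-coding genes places C4BPB, C4BPA and CD55 on one side of CR2, and CR1, CR1L and CD46 on the other, a cluster of genes for complement-binding proteins. After glucosamine CR2 differed by -1.13, its nearest neighbours CD55 and CR1 by -0.01 and 0.14, C4BPA by 0.02, C4BPB by 0.04 and CD46 by 0.03. None of those 5 neighbours passed the test (CR1L had no probe set of its own), and C4BPA, C4BPB and CR1 had low signals, with the highest KMH2 reading at 4.08. Around C5 on chromosome 9, TRAF1, a signalling adaptor of TNF receptors, differed by -0.21, CNTRL, a centriole protein, by -0.48 and PHF19, a Polycomb-associated protein, by -0.34, each past the threshold. RAB14, a vesicle-transport GTPase, was higher by 0.26, and PSMD5 and GSN did not pass. The TRAF1 call held in 6 of its 13 alternatives, which spanned 0.0131 to 0.352. It was lost, among others, without KMH2 control replicate 1 (adjusted p = 0.113) or 2 (0.110) or glucosamine replicate 2 (0.110) or 3 (0.0954). That of RAB14 held in 10 of 13, over a range of 0.00421 to 0.0789, and was lost, among others, without control replicate 2 (0.0657) or 3 (0.0613). The CNTRL call was lost where spread came from all 8 arrays (0.108, range 4.53e-04 to 0.108). That spread takes in the 2 Ramos arrays, which differed by -0.72 for CNTRL (replicate 2 minus replicate 1). Around TFPI on chromosome 2, CALCRL, a receptor for the adrenomedullin family, read 3.32 to 3.44 in KMH2 control and 3.51 to 3.60 after glucosamine (difference 0.17, adjusted p = 0.0611, range 0.0195 to 0.655 in its alternatives). In Ramos CALCRL was higher by 5.18 (adjusted p = 3.31e-07), where TFPI differed by -1.71. FAM171B rose by 0.49 after glucosamine (adjusted p = 9.10e-04), while ZSWIM2, GULP1, COL3A1 and COL5A2 did not pass.

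**Figure D3:**
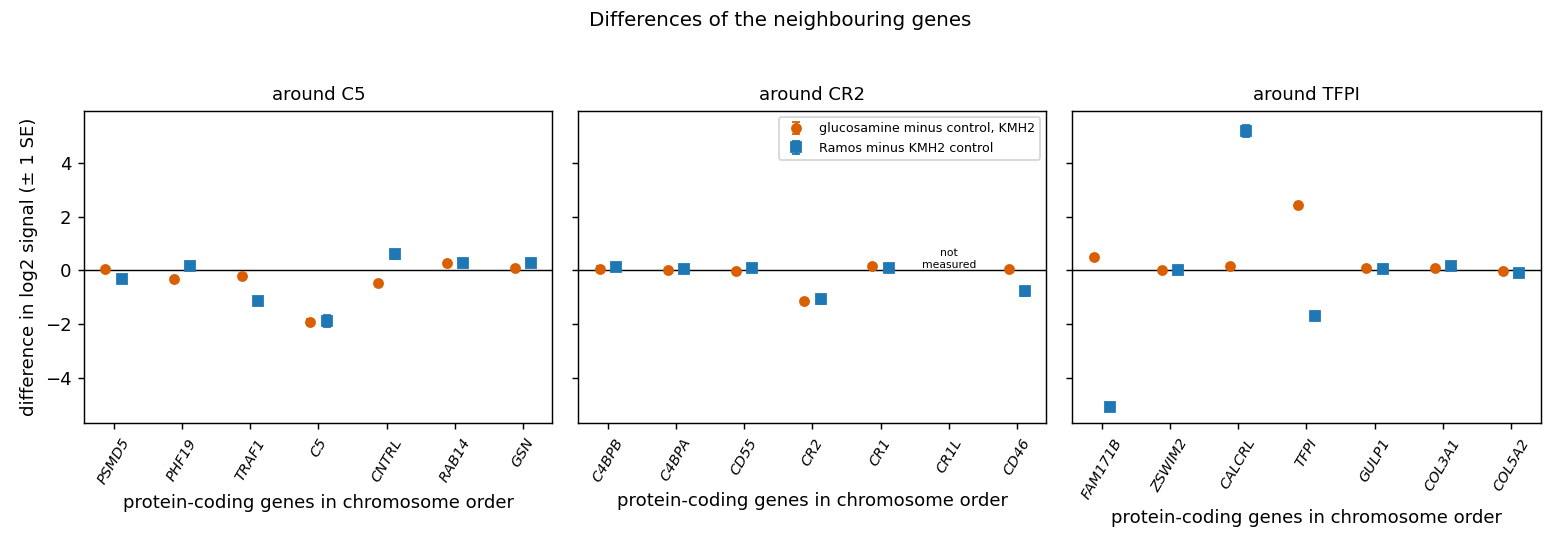
Difference in log2 signal (vertical axis, bars 1 SE) of C5, CR2 and TFPI and the 3 protein-coding genes on each side, in chromosome order on the horizontal axis. Circles are glucosamine minus control in KMH2, squares are Ramos minus KMH2 control, and CR1L was not measured. CR2 stands at -1.13 between CD55 (-0.01) and CR1 (0.14), and TFPI at 2.42 beside CALCRL (0.17).

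Genes whose profiles over the 8 arrays came closest to those of the 3 changed members were found by the root mean square distance between centred log2 profiles, over 17957 other genes. For TFPI, whose own profile had a root mean square spread of 1.65, the nearest were CTH, an enzyme of cysteine synthesis (distance 0.14), the cytokine gene IL1A (0.24) and the haem oxygenase gene HMOX1 (0.25). For CR2 (spread 0.56) they were NFYB, a subunit of the CCAAT-binding factor (0.08, although a second probe set of NFYB differed by -0.34 after glucosamine and the one used by -1.08), the primase gene PRIM1 (0.09) and CSTF2T, a cleavage factor of mRNA 3' ends (0.11). For C5 (spread 0.96) they were ACADSB, of branched-chain amino acid breakdown (0.32), the kinase gene TKFC (0.32) and the hydrolase gene BPHL (0.36). C5 thus had no profile as close to it, relative to its own spread, as TFPI and CR2 had. The 8 arrays form only 3 groups, which all these profiles share. The 2 Ramos arrays (replicate 2 minus replicate 1) differed by -0.79 for C5 and by -1.59, -0.75 and -1.17 for its 3 nearest genes. They differed by -0.67 for CR2 and by -0.80, -0.70 and -0.47 for its 3. How far the likeness rests on that gap was not tested.

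Other complement genes were counted without the 10 members. In the classical and lectin pathways 3 of 14 measured genes rose and 0 fell after glucosamine (21.4% past the threshold against 25.8% of all probe sets), with a median difference of 0.05. The 3 were C1R, C1S and C2, which form the proteases of the classical pathway. C1R rose from 5.55, 5.34 and 5.51 to 6.41, 6.07 and 5.90 (0.66 ± 0.12, SE, adjusted p = 0.00551). C1S rose by 0.43 (adjusted p = 8.97e-04) and C2 by 0.48 (adjusted p = 0.00159), but neither passed where spread came from all 8 arrays (0.253 and 0.176), with ranges of 2.12e-04 to 0.253 and 5.53e-04 to 0.176 in their alternatives. That spread takes in the 2 Ramos arrays, which differed (replicate 2 minus replicate 1) by 1.01 for C1S and 0.92 for C2. The mean signal of all 14 was 5.03 to 5.05 in control and 5.13 to 5.19 after glucosamine. C1S (mean 4.94 in control and 5.37 after glucosamine) and C2 (4.75 and 5.22) lay below 5.70, the median of all probe sets, in both groups. Of 3 other genes of the alternative pathway 1 fell, CFB, the protease of the alternative C3 convertase. It read 8.19, 8.99 and 9.06 in control and 7.52, 8.00 and 8.03 after glucosamine, with replicate 1 low in both groups. Its difference of -0.89 ± 0.23 (SE, adjusted p = 0.0232) had adjusted p = 2.00e-04 with a replicate block. The CFB call was lost without KMH2 control replicate 2 (0.0887) or 3 (0.0888) or glucosamine replicate 1 (0.0510), and where every probe set was tested (0.0610), over a range of 5.49e-05 to 0.0888. In Ramos CFB was lower, at 6.28 and 6.13 (difference -2.54, adjusted p = 8.31e-05). CFD and CFP did not pass after glucosamine.

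Of the 6 terminal components besides C5, 0 passed the limma test after glucosamine and 0 in Ramos (0 in each at an unadjusted p under 0.05). Of all probe sets 25.8% passed after glucosamine and 43.8% in Ramos (36.1% and 50.6% at that unadjusted p), and lists this short say little beside such shares. The mean signal of these 6 stayed between 3.98 and 4.08 on the 8 arrays. Soluble regulators besides CFI had 0 of 7 past the threshold after glucosamine (0 at an unadjusted p under 0.05, median difference -0.03). Of the other 2 membrane regulators, CR1 and CSMD1, neither passed (0.14, adjusted p = 0.165, and 0.12, adjusted p = 0.320), while CSMD1 differed by -2.98 in Ramos (adjusted p = 4.19e-08). Among 8 complement receptors besides CR2, 1 rose, C3AR1, the receptor of the C3a peptide, which went from 5.07, 5.19 and 5.27 to 5.60, 6.07 and 5.88 (0.67 ± 0.11, SE, adjusted p = 0.00351). No other passed, among them the C5a receptor gene C5AR1 (-0.11, adjusted p = 0.390), although ITGAX, a subunit of complement receptor 4, had adjusted p = 0.0436 with a replicate block (difference 0.22 and 0.0633 without it). In the list of monocyte and macrophage markers CSF1R rose by 0.54 and CD14 fell by 1.08, with 3 of 5 not passing (CD163 and LYZ between 3.72 and 3.95 in KMH2) and a list mean of 5.46 to 5.55 in control and 5.33 to 5.45 after glucosamine, and their part in the receptor result was not tested. Of the genes that act with CR2, CD81 fell by 0.19 (adjusted p = 0.0336) and IFITM1 did not pass (-0.12, adjusted p = 0.138). The CD81 call was lost in 9 of its 13 alternatives, among them leaving out any of KMH2 control replicates 1 (0.105), 2 (0.0844) and 3 (0.0600) or glucosamine replicate 3 (0.0775), and they spanned 0.0199 to 0.144. It was lost without glucosamine replicate 2 too. FCER2, the gene of the low-affinity IgE receptor CD23, which binds CR2, was at 4.45 to 4.52 in control and higher in Ramos by 1.88 (adjusted p = 9.31e-07).

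**Figure D4:**
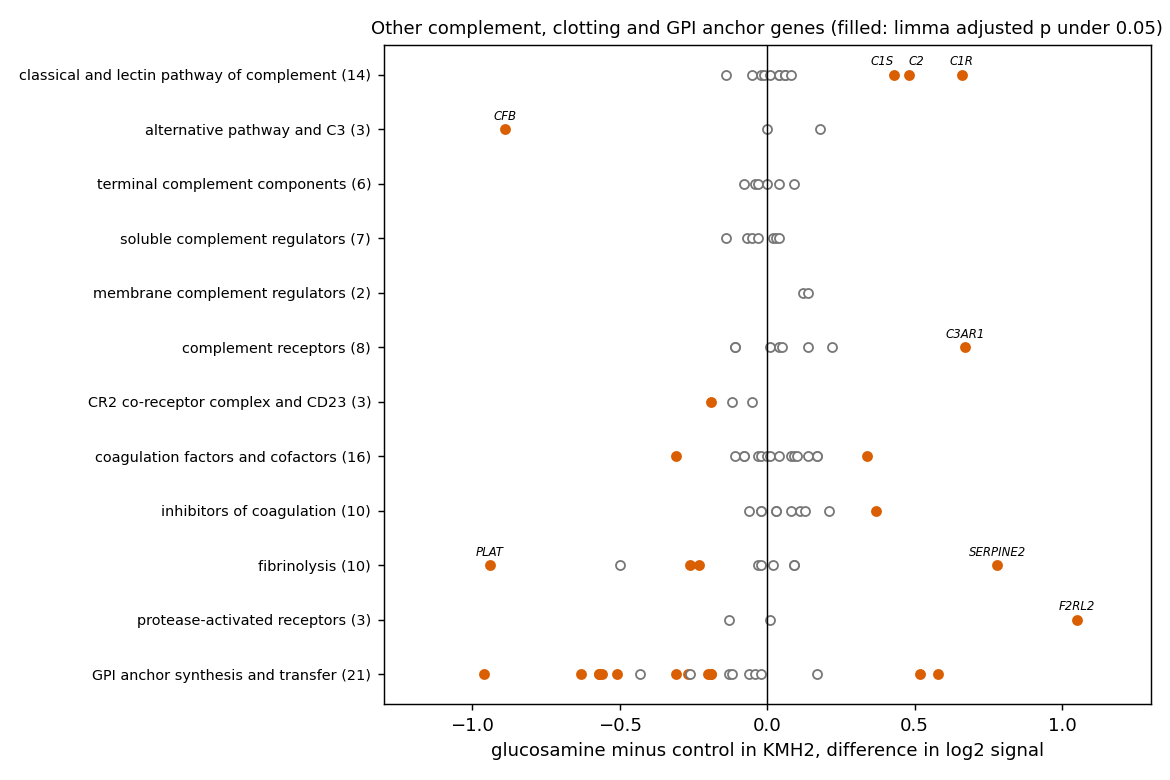
Glucosamine minus control in KMH2 as a difference in log2 signal (horizontal axis) for the genes of each list other than the 10 members (rows, with the number measured). Each point is 1 gene, and filled points passed the limma threshold of 0.05 on the adjusted p. C1R, C1S and C2 lie to the right in the classical and lectin row, CFB at -0.89 to the left, and 11 of the 21 GPI anchor genes are filled on the left.

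On the clotting side, 1 of 16 coagulation factors and cofactors other than F3 rose and 1 fell after glucosamine (12.5% past the threshold, median difference 0.02). Of all probe sets 25.8% passed, 11.9% higher and 13.9% lower. Factor XII (F12), which starts the contact pathway, rose by 0.34 (adjusted p = 0.00193). Factor VIII (F8) fell by 0.31 (adjusted p = 0.0165), a call that held in 9 of 13 alternatives, which spanned 0.00249 to 0.0647. It was lost, among others, without control replicate 1 (0.0533) or 2 (0.0562) or glucosamine replicate 3 (0.0647). F7, the partner of tissue factor, read 5.40, 5.33 and 5.40 in control and 5.73, 5.41 and 5.51 after glucosamine (0.17, adjusted p = 0.181). Among 10 inhibitors of coagulation besides TFPI and TFPI2, 1 rose, the phospholipid-binding annexin gene ANXA5 (0.37, adjusted p = 0.00523), with a median difference of 0.05. ANXA5 had adjusted p = 0.0722 where spread came from all 8 arrays (range 0.00109 to 0.0722). Its 2 Ramos arrays, part of that spread, differed by 0.42 (replicate 2 minus replicate 1). PROCR, the protein C receptor, had adjusted p = 0.0215 with a replicate block (difference 0.21 and 0.410 without it). In fibrinolysis 1 of 10 rose and 3 fell (40.0% past the threshold, against 25.8% of all probe sets). With a replicate block 4 fell, the gained call being THBS1, the gene of thrombospondin 1 (difference -0.50, adjusted p = 9.17e-04, and 0.0745 without the block). SERPINE2, an inhibitor of thrombin and plasminogen activators, rose by 0.78 (adjusted p = 6.38e-05). PLAT, tissue plasminogen activator, fell from 10.34, 10.30 and 10.25 to 9.47, 9.26 and 9.34 (-0.94 ± 0.07, SE, adjusted p = 7.65e-05), and PLAU, urokinase, fell by 0.26 (adjusted p = 0.00797). S100A10, a plasminogen receptor subunit named here after its value was seen, fell by 0.23 (adjusted p = 0.0134). The S100A10 call held in 11 of 13 alternatives, over a range of 0.00583 to 0.134, and was lost, among others, without control replicate 2 (0.0605). F2RL2, a thrombin receptor, rose by 1.05 (adjusted p = 0.00193), and the other 2 measured protease-activated receptors did not pass. In Ramos 7 of the 10 fibrinolysis genes were lower and 1 higher, where 21.2% of all probe sets were lower and 22.7% higher. SERPINE2 differed by -4.83 there and PLAT by -5.05, both lower, as TFPI was.

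CD55 and CD59 are held in the membrane by a glycosylphosphatidylinositol (GPI) anchor, whose core contains glucosamine. Of 21 measured genes of anchor synthesis and transfer 11 fell, 2 rose and 8 did not pass after glucosamine. The share past the threshold was 61.9% against 25.8% of all probe sets, with a median difference of -0.20. Their mean signals lay at percentiles 50.2 (PGAP3) to 90.5 (PGAP2), whereas the 25.8% includes dimmer probe sets. The share among probe sets of like signal was not counted. With a replicate block 12 fell and 2 rose, where PIGC (adjusted p = 0.0269, and 0.252 without the block) and PIGF (0.00105, and 0.0957) passed and PIGS (0.0581, and 0.0460) did not. PIGM, the first mannosyltransferase of the pathway, fell from 8.47, 8.58 and 8.53 to 7.68, 7.52 and 7.50 (-0.96 ± 0.07, SE, adjusted p = 6.71e-05). PIGA, a subunit of the enzyme that adds N-acetylglucosamine in the first step, fell by 0.56 (adjusted p = 3.33e-04), and PGAP2, which remodels the anchor's lipid, by 0.63 (adjusted p = 5.80e-04). The 2 that rose, chosen after their values were seen, were PIGV (0.52, adjusted p = 0.00827) and PGAP1 (0.58, adjusted p = 0.0446). PGAP1 kept its call in 6 of 13 alternatives, over a range of 3.74e-04 to 0.138. It was lost, among others, without any single one of control replicates 1 (0.133), 2 (0.0779) and 3 (0.0748) or glucosamine replicates 2 (0.132) and 3 (0.138). PIGV lost its call where spread came from all 8 arrays (0.164, range 4.06e-04 to 0.164). That spread takes in the 2 Ramos arrays, which differed by 0.89 for PIGV (replicate 2 minus replicate 1). The transcripts of CD55 and CD59 differed by -0.01 and -0.09 after glucosamine in the same KMH2 cells, and their surface protein was not measured. In Ramos 9 of the 21 anchor genes were lower and 5 higher than in KMH2 control, beside 21.2% and 22.7% of all probe sets.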

How the data were processed

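The deposited table holds log2 signals per probe set of HuGene-1_1-st-v1 array strips, as the authors made them. The log2 unit was read from the values (1.935 to 13.213), and their normalization is among the details not given in the sources used here. Of 33297 probe sets, 21236 were listed in the platform annotation of 2016, and the 19181 with exactly 1 symbol were tested. The probe set with the highest mean over the 8 arrays stood for a gene with several. The 3 probe sets each of C2 and CFB made the same calls after glucosamine.

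limma 3.58.1 in R 4.3.3 (lmFit, eBayes, two-sided, Benjamini-Hochberg over all tested probe sets, threshold 0.05) compared glucosamine with control in the 6 KMH2 arrays, and Ramos with KMH2 control with all 8 arrays sharing the spread. Intervals are 95%. The code was tested on simulated data. KMH2 replicates are biological per the design text. For Ramos nothing says so, and their p-values may measure technical spread.

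Same-numbered KMH2 arrays deviated together from their group means (correlations 0.46, 0.23 and 0.23). Replicates 2 and 3 did so across numbers too (0.25 and 0.18), and replicate 1 did not (-0.37 to -0.27). Every same-numbered correlation was over 0.1, but so were the 0.25 and 0.18 across numbers, so these values cannot tell pairs 2 and 3 apart. The numbers were taken as pairs and a fit with a replicate block was added. The design text's replicates before and after treatment are the source of the pairing.

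Members and gene lists were chosen with earlier results of these data known. Genes named outside the 10 were, per list and comparison, up to 3 with the smallest p past the threshold, and for C5, CR2 and TFPI the 3 nearest profiles. In Ramos fewer were named. Chromosome neighbours and genes named to show a count or a low value were added after values were seen. Promoters came from RefSeq (Python 3.11.15). The array annotation's build is not stated here.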

Additional observations from a re-analysis of the deposited data

How the results depend on the processing

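Each comparison was refitted with quantile normalization, without probe sets whose mean signal lay under 5.70, with all probe sets of the table, with array weights and without each array in turn, and in KMH2 also with a replicate block, without both replicate 1 arrays and with spread from all 8 arrays, and for Ramos with spread from the 5 arrays compared. None of the 7 members chosen by role passed after glucosamine in any of these fits, and the differences of C5, CR2 and TFPI ran from -2.03 to -1.86, from -1.16 to -1.11 and from 2.36 to 2.51. The 4 members below the dim limit had no value without dim probe sets, and TFPI kept its value there through its treated arrays. No other probe set of a member existed, so that alternative was not run. The number of probe sets past the threshold after glucosamine was 4956, 5748 with the replicate block and 2177 with spread from all 8 arrays, 6594 with array weights and 3600 to 5304 with 1 array left out. The block changed the call of none of the 7 tested members. Of 135 other listed genes it added 6 calls (ITGAX, PROCR, THBS1, PIGC, PIGF and the T-cell marker CD3G) and removed 1 (PIGS), a comparison over all listed genes that was added after seeing the data. For Ramos it was 8408, with 6361 under array weights, 7303 with spread from 5 arrays, 11475 when all probe sets were tested and 7035 to 9349 with 1 array left out. The Ramos call of C3 (-0.36) was lost with array weights (-0.37) and in 3 of the 5 fits that left out 1 array, in which its difference ran from -0.45 to -0.26. The other 5 Ramos calls held in all fits that gave a value. Leaving out 1 Ramos array rests on a lone array assumed to vary like the other groups. With 3 or 2 arrays a group, the number of arrays limits the precision. Low signals of C3, CFI, F3 and TFPI2, and of TFPI in KMH2 control and Ramos, limit what could be seen. The mean signals of C1R, C1S, C2 and C3AR1, which passed after glucosamine, were also below the median of all probe sets.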
